A study of Homo sapiens with 15 samples.

Results

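The 10 genes described here encode secreted cytokines and chemokines that the human breast cancer line MDA-MB-231 makes itself. They are IL1B, IL1A, IL6, CXCL8, CXCL1, CXCL2, CXCL3, LIF, IL11 and CSF2, taken by symbol from a table of 59608 genes, and all 10 were found in it. They were picked with results of the same libraries in view, and IL1B in particular was chosen by its p-value against DMSO at 0.5 nM, one of the smallest of all genes. The differences of IL1B from the vehicle are therefore given as a description with no p-value. IL1B was tested between the treated groups of 5, 50 and 500 nM, with a spread taken from all 15 libraries. RNA was sequenced from 15 dishes in 2D culture, each taken after 6 h. Of these, 3 dishes received 0.1% DMSO, the vehicle, and 3 dishes each received 0.5, 5, 50 or 500 nM ZJ-101. The compound is man-made and keeps part of the structure of superstolide A, a macrolide from a sponge. No gene was altered in any group, and every library comes from the same line, so the 3 replicates of a group are separate dishes of the same cells.

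Interleukin-1β and interleukin-1α are made as precursors without a secretion signal peptide, and both act through the same receptor, which signals to NF-κB and MAP kinases. CXCL1, CXCL2, CXCL3 and CXCL8 are chemokines that attract neutrophils through CXCR1 and CXCR2. IL-6, LIF and IL-11 bind their own receptor chains and signal through the shared chain gp130, and GM-CSF, the product of CSF2, drives the growth of granulocytes and macrophages. Cytokine mRNAs as a class are short-lived, and AU-rich sequences in their 3′ UTRs are known to speed their decay. MDA-MB-231 is a triple-negative line of mesenchymal character that is known for high output of IL-6 and CXCL8.

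The 15 libraries held between 12415519 and 15284762 reads on genes (median 13320354). The 50 nM libraries were the shallowest, at 12415519 to 12623863, and mitochondrial genes took 0.889% to 2.06% of the reads of a library. Replicate 2 at 0.5 nM stood apart from the other 2 of its group, with a chi-square per degree of freedom over genes of 10.2 and 15.1 in recovered reads, against 1.96 to 5.81 for the other pairs of replicates. Mitochondrial genes took 1.88% of its reads, against 1.15% and 0.889% in the other 2, and the cytokine calls that it changes are given with and without it. The identity of the cells was checked on fixed marker genes. VIM, CD44, AXL, EGFR and CAV1 lay between 3471 and 18413 normalized counts in every library. Of the markers this line should lack, ESR1 was at 0 to 4.30 and PGR at 5.37 to 17.3, whereas CDH1, at 107 to 206, GATA3, at 122 to 168, EPCAM, at 266 to 320, and ERBB2, at 1136 to 1328, were detected in every library. Leukocytes, the other usual makers of these cytokines, were sought with 8 markers. CD3E and MS4A1 were at 0 in all 15 libraries, PTPRC was at 0 to 3.53, and the 8 markers together summed to 70.3 to 111 normalized counts, of which CSF1R made up 49.7 to 80.3. These sums were 80.1 to 111 in DMSO, 88.1 to 101 at 0.5 nM, 98.0 to 109 at 5 nM, 76.3 to 84.0 at 50 nM and 70.3 to 72.8 at 500 nM, and their part in the results was not tested. In bulk libraries, fewer cells that express a gene and less RNA per cell cannot be told apart.

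The promoters of the neutrophil chemokines are shown first, because these 4 genes lie close together on chromosome 4 and read differently across the doses. RefSeq promoter sequences of GRCh38.p14, reaching from 250 bases before to 50 after the annotated start, were at hand for 9 of the 10 genes (all but LIF). They were searched on both strands for GGNNNTTCC, a short form of the NF-κB site. Capitals mark the matches in the stretches below, each of 120 bases and read 5′ to 3′ along the gene. They cover chr4:73869273-73869392 on the plus strand for CXCL1, chr4:74099196-74099315 and chr4:74038690-74038809 on the minus strand for CXCL2 and CXCL3, and chr4:73740449-73740568 on the plus strand for CXCL8.
CXCL1: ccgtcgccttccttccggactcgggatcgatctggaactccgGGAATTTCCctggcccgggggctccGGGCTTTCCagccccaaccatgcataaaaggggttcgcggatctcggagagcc
CXCL2: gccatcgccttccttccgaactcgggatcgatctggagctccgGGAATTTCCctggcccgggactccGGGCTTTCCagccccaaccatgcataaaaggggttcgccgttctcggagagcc
CXCL3: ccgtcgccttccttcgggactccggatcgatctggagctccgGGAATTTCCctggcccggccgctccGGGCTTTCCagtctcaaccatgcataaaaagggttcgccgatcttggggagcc
CXCL8: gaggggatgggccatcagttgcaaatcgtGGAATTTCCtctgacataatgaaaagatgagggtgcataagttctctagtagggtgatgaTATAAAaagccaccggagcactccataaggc

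CXCL1, CXCL2 and CXCL3 each held the same pair of matches. The first began 78 bases before the start in CXCL1 and CXCL3 and 77 in CXCL2, and the second began 53 bases before it in all 3. CXCL8 held the match GGAATTTCC once, and the second run of capitals in its line is TATAAA, the TATA box letters. The NF-κB letters were present in 6 of the 9 promoters, those of CSF2 and IL6 included, and in 20.1% of 35116 RefSeq promoters of the same length. The AP-1 letters TGANTCA were present in IL1A, CXCL8 and IL11, against 7.71% of all promoters. TATAAA was found in IL1A and CXCL8, against 11.5% of all promoters. It began 31 bases before the start in CXCL8 but 239 bases before it in IL1A. A gene was counted if any of its promoters matched, and IL1A had more than 1, whereas the shares are of promoters. The cyclic AMP element TGACGTCA was found in 0 of the 9, against 1.85% of all promoters. For contrast, the stretches of IL6 at chr7:22727080-22727199 on the plus strand, with 1 NF-κB match in capitals, and of IL1B at chr2:112836780-112836899 on the minus strand, which held none of these letters, are given next.
IL6: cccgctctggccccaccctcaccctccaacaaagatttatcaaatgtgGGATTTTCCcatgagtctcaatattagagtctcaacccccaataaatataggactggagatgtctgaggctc
IL1B: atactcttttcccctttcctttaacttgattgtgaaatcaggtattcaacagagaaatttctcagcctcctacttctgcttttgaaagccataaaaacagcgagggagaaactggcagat
A match is a run of letters in this window and not a measured site.

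The 3′ UTRs shared a feature known for cytokine mRNAs as a class, so the choice of genes by class already favours it. All 10 genes carried 5 or more copies of the AU-rich pentamer ATTTA in the 3′ UTR of their main GENCODE transcript on GRCh38, with a median of 7. Among the 7599 tested genes whose 3′ UTR was within the range of these 10, 318 to 3198 bases, 27.0% carried as many, and their median was 2. The longer core TTATTTATT was present in 8 of the 10, all but IL1A and IL6, against 7.37% of the 7599 genes. The densest stretch of 25 bases is printed for IL1B, CXCL1, CXCL2, IL11 and CSF2, with the pentamers in capitals. The stretches lie at chr2:112830001-112830025 on the minus strand for IL1B, at chr4:73870672-73870696 on the plus strand for CXCL1, at chr4:74097588-74097612 on the minus strand for CXCL2, at chr19:55365949-55365973 on the minus strand for IL11 and at chr5:132076077-132076101 on the plus strand for CSF2.
IL1B: ccgcttccctATTTATTTATTTAtt
CXCL1: gaagtcttctATTTATTTATTTAtt
CXCL2: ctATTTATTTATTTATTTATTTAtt
IL11: gccagatcttATTTATTTATTTAtt
CSF2: aaatATTTATTTATTTATTTATTTA
Per kilobase of 3′ UTR the pentamers numbered 25.2 in CSF2, 14.1 in IL6, 13.97 in CXCL2, 10.4 in CXCL3 and 9.84 in IL1B. They numbered 7.77 in CXCL1, 7.19 in CXCL8, 5.54 in IL11, 4.38 in IL1A and 2.19 in LIF, whose 3′ UTR was the longest.

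**Figure D1:**
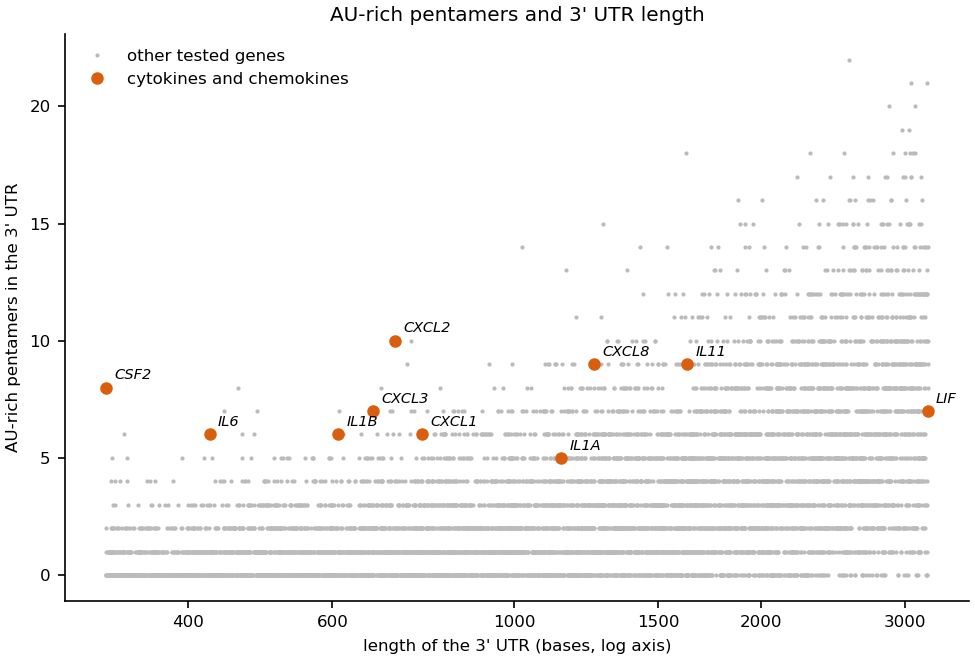
Number of ATTTA pentamers in the 3′ UTR (vertical axis) against the length of the 3′ UTR in bases (horizontal log axis) for the cytokine genes (large labelled points) and the other tested genes in the same range of length (small points). The 10 genes sit between 5 and 10 pentamers, and CSF2 holds 8 in 318 bases.

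In the DMSO libraries the 10 transcripts spanned a wide range. Levels are compared between genes as normalized counts per kilobase of exon sequence, as means ± SD over 3 libraries. The exon sequence is that of all annotated transcripts of a gene together, 4321 bases for IL6, and can be longer than the mRNA made. The order between genes therefore depends on this annotation. CSF2 was highest at 1500 ± 34.1 per kb, followed by IL11 at 951 ± 55.1, CXCL1 at 643 ± 17.4 and CXCL8 at 595 ± 2.24. LIF stood at 245 ± 12.2, IL1B at 212 ± 12.2 and CXCL2 at 185 ± 20.6. IL6 at 125 ± 1.84, CXCL3 at 87.1 ± 8.46 and IL1A at 37.2 ± 8.69 closed the order. IL1B and CXCL2 were the neighbours whose DMSO libraries overlapped, so their order was not resolved. At 500 nM the order had changed. IL11, at 1215 ± 20.8 per kb, stood above CSF2, at 1171 ± 10.0, and CXCL8, at 544 ± 18.1, above CXCL1, at 451 ± 41.8, with no overlap between the libraries of either pair.

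IL1B (chromosome 2, 112829751 to 112836816, minus strand) did not follow the order of the doses. It read 636, 674 and 601 normalized counts in the 3 DMSO libraries, 924, 1054 and 1041 at 0.5 nM, and 954, 1070 and 1107 at 5 nM. At 50 nM it read 678, 787 and 708, and at 500 nM 1084, 998 and 1100. The libraries of 0.5, 5 and 500 nM all stood above those of DMSO and of 50 nM, and the 50 nM libraries stood just above those of DMSO. The log2 difference from DMSO was 0.66 at 0.5 nM, 0.71 at 5 nM, 0.18 at 50 nM and 0.74 at 500 nM. Each had an SE of 0.072, which describes spread and is no test, because the DMSO libraries helped to pick the gene. Without 0.5 nM replicate 2 the difference at 0.5 nM was 0.62. The drop from 5 to 50 nM and the return from 50 to 500 nM compare libraries that did not pick the gene. Their SE comes from the fit over all 5 groups, which holds the DMSO and 0.5 nM libraries that picked IL1B. IL1B fell by 0.53 on the log2 scale from 5 to 50 nM (SE 0.072, adjusted p = 0.000155 by limma with Benjamini-Hochberg adjustment over 13561 genes). It rose by 0.55 from 50 to 500 nM (SE 0.072, adjusted p = 0.000221, limma). Between 5 and 500 nM the difference was 0.02, with a 95% interval of -0.13 to 0.18 (adjusted p = 0.894, limma). Both steps passed the threshold of 0.05 under every alternative setting, the 6 libraries compared alone included, and without any 1 library. The 50 nM libraries were also the shallowest, as given above, and the part of depth in these steps was not tested.

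IL1A (chromosome 2, 112773925 to 112784493, minus strand), whose product shares the IL-1 receptor, was the least abundant of the 10. It read 95.1, 65.8 and 63.9 normalized counts in DMSO, 112, 91.1 and 116 at 0.5 nM, 125, 98.9 and 111 at 5 nM, 79.5, 83.0 and 101 at 50 nM, and 99.9, 75.9 and 102 at 500 nM. Its 5 nM libraries all stood above DMSO, while the other doses overlapped it through DMSO replicate 1. The difference from DMSO was 0.52 at 0.5 nM (SE 0.17, adjusted p = 0.147, limma) and 0.59 at 5 nM (SE 0.17, adjusted p = 0.0793), and neither passed. Without DMSO replicate 1 the 5 nM difference passed, at an adjusted p of 0.0350 (limma). The ratio of IL1B to IL1A lay between 6.69 and 13.2 over all libraries, and the 500 nM libraries, at 10.8 to 13.2, stood above those of DMSO, 5 nM and 50 nM, by a narrow margin at 5 nM, and overlapped those of 0.5 nM.

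**Figure D2:**
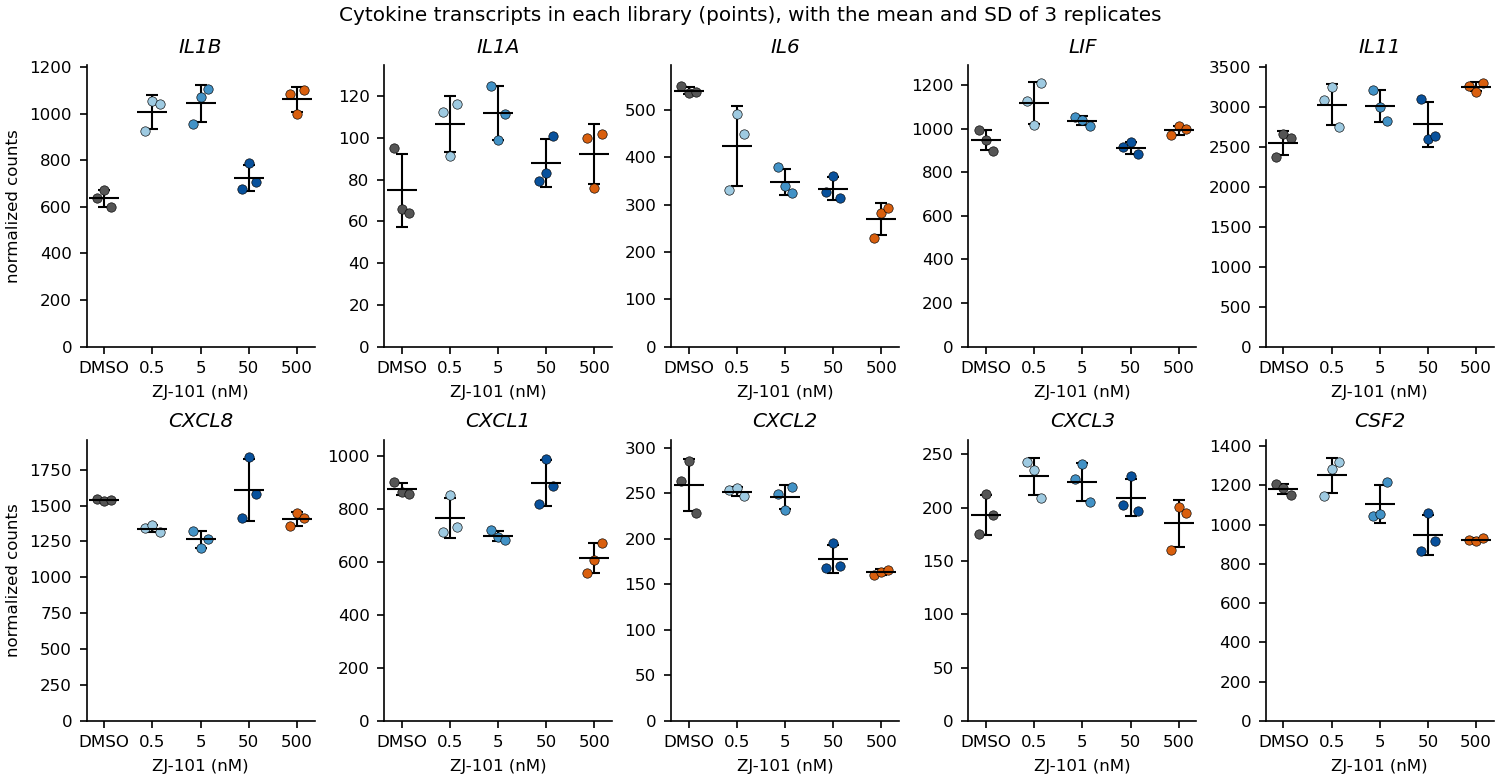
Normalized counts of each of the 10 genes (vertical axes, from 0) in every library (points) by ZJ-101 dose in nM (horizontal axes), with the mean (long bar) and SD (whiskers) of 3 replicates. IL1B drops at 50 nM to 678 to 787 between high groups on both sides, and CXCL1 peaks there at 818 to 990.

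CXCL1 (chromosome 4, 73869393 to 73871308, plus strand), a ligand of CXCR2, had nearly the reverse profile. It read 902, 865 and 858 normalized counts in DMSO, 713, 853 and 730 at 0.5 nM, and 720, 693 and 682 at 5 nM. At 50 nM it read 818, 990 and 886, and at 500 nM 560, 609 and 673. The 0.5, 5 and 500 nM libraries lay below all DMSO libraries, and the 50 nM libraries overlapped DMSO. From 5 to 50 nM CXCL1 rose by 0.36 on the log2 scale (SE 0.079, adjusted p = 0.0102, limma), and from 50 to 500 nM it fell by 0.55 (SE 0.079, adjusted p = 0.000524). At 500 nM it was 0.51 below DMSO (SE 0.079, adjusted p = 0.000111, limma). The fall of 0.32 at 5 nM (SE 0.079, adjusted p = 0.0357, limma) was lost without any 1 of the DMSO or 5 nM libraries, with adjusted p-values of 0.0824 to 0.159. The rise to 50 nM was lost without 5 nM replicate 3 (adjusted p = 0.0513) or 50 nM replicate 2 (adjusted p = 0.0573).

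CXCL8 (chromosome 4, 73740519 to 73743716, plus strand), the ligand of CXCR1 and CXCR2 also called interleukin-8, was likewise low at 5 nM and higher at 50 nM. Its libraries read 1545, 1534 and 1539 normalized counts in DMSO, 1343, 1362 and 1315 at 0.5 nM, 1322, 1205 and 1266 at 5 nM, 1411, 1836 and 1580 at 50 nM, and 1358, 1450 and 1414 at 500 nM. All libraries of 0.5, 5 and 500 nM were below those of DMSO, whereas the 50 nM libraries scattered around them. The rise from 5 to 50 nM was 0.34 (SE 0.068, adjusted p = 0.00482, limma) and passed without any 1 library. The fall of 0.28 at 5 nM against DMSO (SE 0.068, adjusted p = 0.0323, limma) was lost without any 1 of the DMSO or 5 nM libraries, with adjusted p-values of 0.0571 to 0.172. At 500 nM the difference from DMSO was -0.13 (SE 0.068, adjusted p = 0.217, limma).

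CXCL2 (chromosome 4, 74097040 to 74099196, minus strand) shares its receptor and its promoter letters with CXCL1 but stepped down once. It read 263, 285 and 228 normalized counts in DMSO, 253, 255 and 246 at 0.5 nM, 249, 232 and 257 at 5 nM, 168, 195 and 170 at 50 nM, and 160, 164 and 166 at 500 nM. The 6 libraries of 50 and 500 nM lay below the other 9. CXCL2 was 0.54 lower than DMSO at 50 nM (SE 0.089, adjusted p = 0.000579, limma) and 0.66 lower at 500 nM (SE 0.089, adjusted p = 2.84e-05). Most of this lay in the step from 5 to 50 nM, where it fell by 0.47 (SE 0.089, adjusted p = 0.00329, limma). These falls passed without any 1 library.

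CXCL3 (chromosome 4, 74036589 to 74038807, minus strand), the last of this trio, passed in no comparison. It read 175, 212 and 193 normalized counts in DMSO, 243, 235 and 209 at 0.5 nM, 227, 241 and 205 at 5 nM, 202, 229 and 197 at 50 nM, and 160, 200 and 195 at 500 nM. Its libraries overlapped DMSO at every dose. The differences from DMSO ran from 0.25 at 0.5 nM (SE 0.11, adjusted p = 0.293, limma) to -0.06 at 500 nM (95% interval -0.29 to 0.16, adjusted p = 0.748). CXCL1, CXCL2 and CXCL3 are close paralogs, but few stretches were shared letter for letter. Of all 75-base stretches of their main transcripts, 0.273% in CXCL1, 2.50% in CXCL2 and 2.30% in CXCL3 also occurred in another gene. Stretches that differ by a few letters were not counted, so whether reads were split wrongly beyond that part was not tested.

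Ratios within a library do not depend on how libraries are scaled, and the 3 given here were chosen after the values had been seen and carry no test. CXCL1 stood to CXCL2 as 3.03 to 3.76 in DMSO, 2.81 to 3.34 at 0.5 nM, 2.66 to 2.99 at 5 nM, 4.88 to 5.21 at 50 nM and 3.50 to 4.05 at 500 nM, so the 50 nM libraries stood alone. CXCL8 to CXCL2 was 4.94 to 6.74 in the groups up to 5 nM, and 8.42 to 9.40 at 50 nM and 8.48 to 8.85 at 500 nM. IL1B to CXCL1 alternated. It was 0.700 to 0.779 in DMSO, 1.24 to 1.43 at 0.5 nM, 1.32 to 1.62 at 5 nM, 0.795 to 0.829 at 50 nM and 1.63 to 1.94 at 500 nM, with the 50 nM libraries just above DMSO and below every other treated library.

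**Figure D3:**
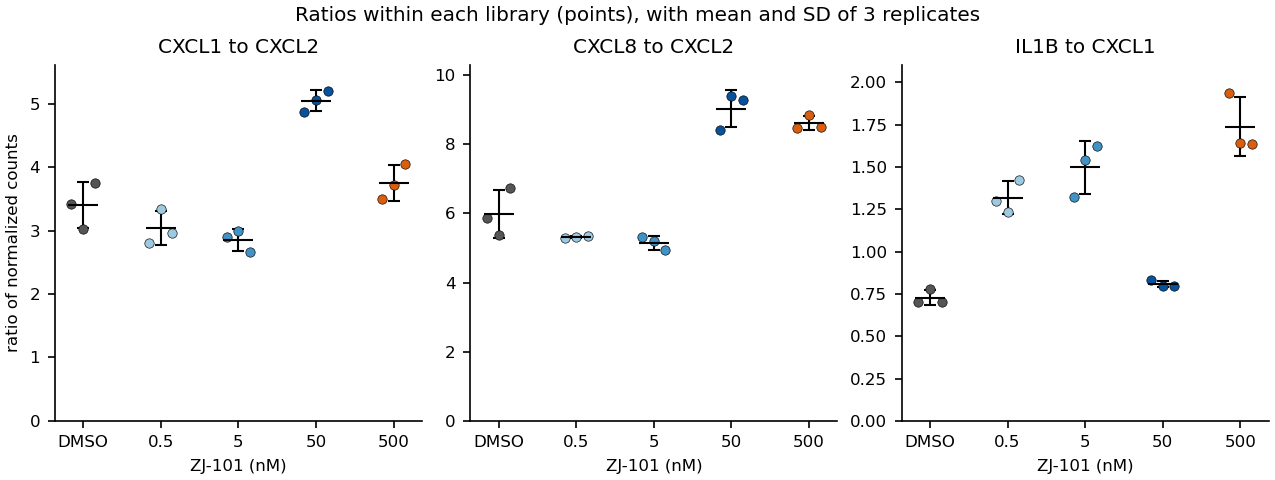
Ratios of normalized counts within each library (vertical axes, from 0) by ZJ-101 dose in nM (horizontal axes), with mean (long bar) and SD (whiskers) of 3 replicates. CXCL1 to CXCL2 peaks at 50 nM at 4.88 to 5.21, CXCL8 to CXCL2 is high at both upper doses, and IL1B to CXCL1 is lowest in DMSO and at 50 nM.

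IL6 (chromosome 7, 22725884 to 22732002, plus strand), the gp130 cytokine that drives the acute-phase response, had the largest fall of the 10. It read 551, 536 and 538 normalized counts in DMSO, 331, 493 and 450 at 0.5 nM, 379, 340 and 326 at 5 nM, 328, 361 and 314 at 50 nM, and 230, 282 and 294 at 500 nM. Every treated library lay below every DMSO library, and replicate 1 was the lowest at both 0.5 and 500 nM. The difference was -0.37 at 0.5 nM (SE 0.12, adjusted p = 0.147, limma), and without 0.5 nM replicate 2 it passed at an adjusted p of 0.0402. IL6 fell by 0.64 at 5 nM (SE 0.12, adjusted p = 0.00694, limma), by 0.70 at 50 nM (adjusted p = 0.000736) and by 1.02 at 500 nM (adjusted p = 4.80e-06). These 3 falls passed without any 1 library. The further fall of 0.38 from 5 to 500 nM (SE 0.12, adjusted p = 0.0447, limma) was not stable. Leaving out 1 library took its adjusted p as high as 0.213, without 500 nM replicate 1, and edgeR's quasi-likelihood test gave an adjusted p of 0.0509. Other genes, IL6-AS1 and STEAP1B, overlap 9.91% of the exon bases of IL6 on the opposite strand, and whether counting used strand is not given in the sources used here.

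IL11 (chromosome 19, 55364382 to 55370463, minus strand), which signals through the same gp130 chain, went the other way. Its libraries read 2379, 2656 and 2607 normalized counts in DMSO, 3085, 3247 and 2745 at 0.5 nM, 3216, 2995 and 2822 at 5 nM, 3104, 2598 and 2641 at 50 nM, and 3268, 3191 and 3299 at 500 nM. The libraries of 0.5, 5 and 500 nM all stood above DMSO, and those of 50 nM overlapped it, through replicates 2 and 3. IL11 rose by 0.35 at 500 nM (SE 0.071, adjusted p = 0.00146, limma), and this rise passed without any 1 library. The differences of 0.25 at 0.5 nM (SE 0.071, adjusted p = 0.112, limma) and 0.24 at 5 nM (adjusted p = 0.0920) did not pass, though DESeq2 put them at adjusted p-values of 0.0339 and 0.0324. The step from 50 to 500 nM was 0.23 (SE 0.071, adjusted p = 0.116, limma), with no overlap of libraries. This step passed in limma without 0.5 nM replicate 2 (adjusted p = 0.0388) or 50 nM replicate 1 (adjusted p = 0.0243).

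LIF (chromosome 22, 30240453 to 30246759, minus strand), another gp130 ligand, passed in no comparison of the main test. It read 994, 948 and 899 normalized counts in DMSO, 1125, 1016 and 1208 at 0.5 nM, 1054, 1041 and 1014 at 5 nM, 913, 940 and 885 at 50 nM, and 970, 1011 and 997 at 500 nM. The 0.5 and 5 nM libraries stood above all DMSO libraries, and the others overlapped them. The difference at 0.5 nM was 0.24 (SE 0.058, adjusted p = 0.0583, limma), with adjusted p-values of 0.0430 by edgeR and 0.0257 by DESeq2, and without 0.5 nM replicate 2 it was 0.30 (adjusted p = 0.00784, limma). At 500 nM it was 0.07 (95% interval -0.05 to 0.19, adjusted p = 0.477, limma). The step from 5 to 50 nM was -0.18 (SE 0.058, adjusted p = 0.0841, limma), with no overlap of libraries. This step passed in limma without 0.5 nM replicate 2 (adjusted p = 0.0178) or replicate 3 (adjusted p = 0.0453). It also passed with the 6 libraries compared alone (adjusted p = 0.0417, limma). LIF-AS1 and LIF-AS2 cover 4.37% of the exon bases of LIF on the other strand.

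CSF2 (chromosome 5, 132073789 to 132076170, plus strand), which encodes GM-CSF, fell at the upper doses. It read 1205, 1189 and 1153 normalized counts in DMSO, 1148, 1286 and 1318 at 0.5 nM, 1046, 1054 and 1216 at 5 nM, 865, 1058 and 918 at 50 nM, and 923, 914 and 930 at 500 nM. The libraries of 50 and 500 nM lay below all DMSO libraries, and those of 0.5 and 5 nM overlapped them. CSF2 fell by 0.36 at 500 nM (SE 0.072, adjusted p = 0.00156, limma), and this passed without any 1 library. The fall of 0.32 at 50 nM (SE 0.072, adjusted p = 0.00811, limma) was lost without 50 nM replicate 1, at an adjusted p of 0.0652. From 5 to 500 nM it fell by 0.26 (SE 0.072, adjusted p = 0.0250, limma), and without 5 nM replicate 3 the adjusted p was 0.154, and without any 1 of the 500 nM libraries 0.0629 to 0.0776. The step from 5 to 50 nM, -0.22 (SE 0.072, adjusted p = 0.0888, limma), did not pass. It did so in limma without 0.5 nM replicate 2 (adjusted p = 0.0476) or 50 nM replicate 2 (adjusted p = 0.0156).

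**Figure D4:**
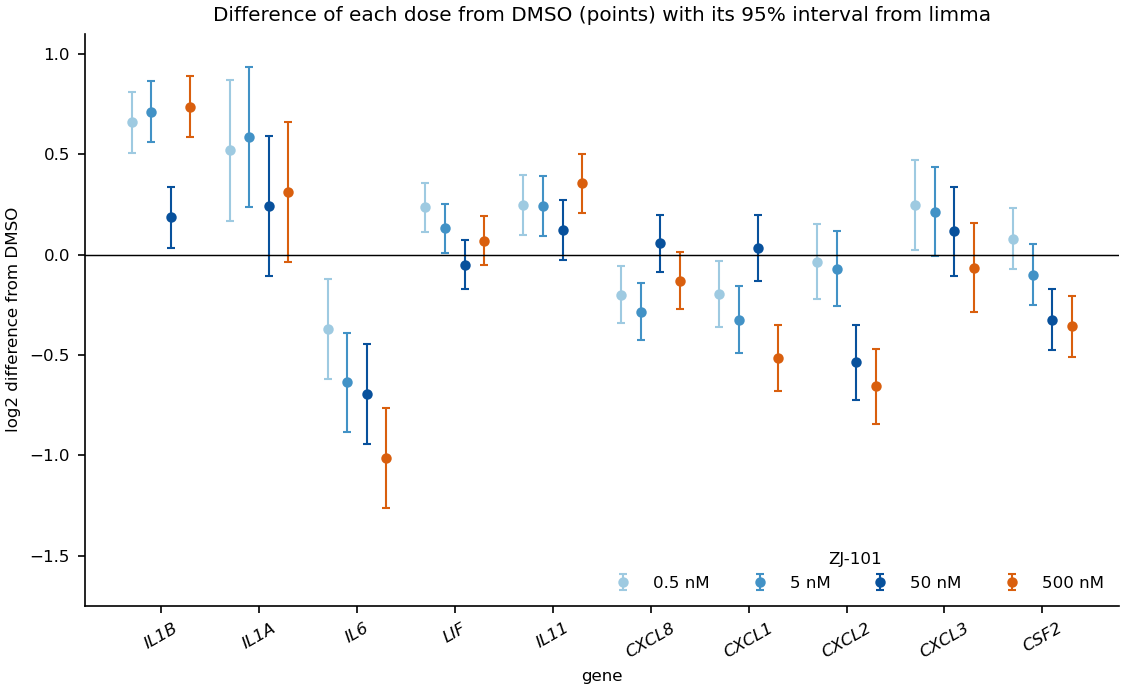
Log2 difference of each dose from DMSO (vertical axis) for the 10 genes (horizontal axis), as limma estimates (points) with 95% intervals (whiskers) over 3 libraries per group. IL6 descends from -0.37 to -1.02 over the doses, whereas IL1B stands at 0.66, 0.71, 0.18 and 0.74. IL1B was chosen by its p-value against DMSO at the lowest dose, and all doses share the DMSO libraries. Its whiskers are therefore a description of spread and no test of a difference from DMSO.

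Against DMSO the calls among the 9 genes other than IL1B were mostly falls. At 0.5 nM limma called 0 of the 9 at the threshold of 0.05, with 1.17% of all 13561 tested genes called (0.251% higher and 0.922% lower), while 7 of the 9 had an unadjusted p under 0.05, against 14.7% of all genes. edgeR called 1 of the 9 at that dose, LIF, and DESeq2 called 2, LIF and IL11. Without replicate 2 of 0.5 nM limma called 2, LIF and IL6, and at 5 nM, where that library enters through the shared spread, it called 5, with IL1A and IL11 in addition. All genes called without it numbered 154 at 0.5 nM and 623 at 5 nM, against 159 and 295 with it. At 5 nM 3 of the 9 fell, IL6, CXCL1 and CXCL8, against 2.18% of all genes called (0.465% higher and 1.71% lower). At 50 nM 3 fell, IL6, CXCL2 and CSF2, against 6.00% of all genes (2.29% higher and 3.71% lower). At 500 nM 4 fell, IL6, CXCL1, CXCL2 and CSF2, and IL11 rose, against 17.8% of all genes called (10.1% lower and 7.69% higher). The number of the 9 genes whose libraries did not overlap those of DMSO was 5 at 0.5 nM, 6 at 5 nM, 3 at 50 nM and 6 at 500 nM, against 18.1%, 23.2%, 24.8% and 38.5% of all genes. The median log2 difference of the 9 was 0.08, -0.07, 0.03 and -0.13 in order of dose, and that of all genes lay within 0.01 of 0. These 4 comparisons share the same 3 DMSO libraries.

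Between doses all 10 genes were counted. From 5 to 50 nM CXCL8 and CXCL1 rose and IL1B and CXCL2 fell, with 5.01% of all genes called (2.62% higher and 2.39% lower). From 50 to 500 nM IL1B rose and CXCL1 fell, with 2.28% of all genes called (0.479% higher and 1.80% lower). From 5 to 500 nM IL6, CXCL2 and CSF2 fell, with 11.7% of all genes called (5.49% higher and 6.22% lower). In the first 2 of these steps the genes with libraries apart numbered 5 and 6 of the 10, against 23.7% and 20.2% of all genes, and between 5 and 500 nM they numbered 7, against 31.6%.

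**Figure D5:**
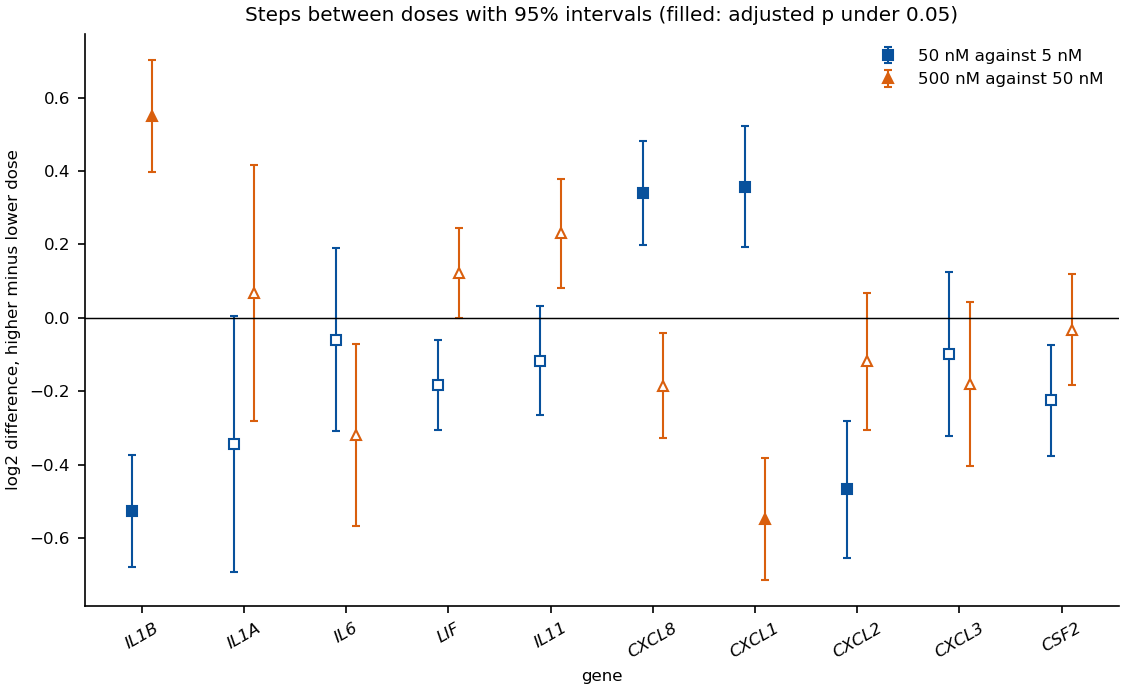
Log2 difference from 5 to 50 nM (squares) and from 50 to 500 nM (triangles) with 95% intervals (vertical axis) for the 10 genes (horizontal axis), filled where the limma adjusted p was under 0.05. IL1B goes from -0.53 to 0.55, and CXCL1 from 0.36 to -0.55.

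The tested genes with the profile most like IL1B were found by Pearson's r of log2(normalized count + 1) over the 15 libraries, which share groups and depth, so r is a description. Among them were DHRS3 and CSF3 with r = 0.89, ARHGAP22 with 0.88 and PTGES with 0.87, where the 5th and 95th percentiles over 13560 genes were -0.55 and 0.50. Among the other 9 cytokines r was 0.69 for IL11, 0.62 for LIF and 0.61 for IL1A, and at the other end -0.53 for IL6, -0.67 for CXCL8 and -0.73 for CXCL1. CSF3 encodes G-CSF, the growth factor of neutrophils, and read 217 ± 5.16 normalized counts in DMSO, 346 ± 19.9 at 0.5 nM, 299 ± 11.7 at 5 nM, 234 ± 3.15 at 50 nM and 296 ± 30.8 at 500 nM (mean ± SD, n = 3). These libraries chose CSF3, so its values carry no p-value here. PTGES, the prostaglandin E synthase, read 3346, 3904, 3900, 3605 and 4382 as group means in order of dose, and DHRS3, a retinaldehyde reductase, 225, 314, 329, 242 and 416.

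The receptors for these ligands were unequally present. Of the 13 receptor genes, 8 were high enough to test, and CXCR2 and ACKR1 were at 0 in all libraries, while CXCR1, CSF2RB and IL1R2 did not exceed 1.03, 1.01 and 3.22 normalized counts. Transcripts for the receptor chains of the neutrophil chemokines were thus at or near 0 in the cells that made the ligands. At 500 nM 2 of the 8 fell, with 17.8% of all tested genes called (10.1% lower and 7.69% higher). IL1R1, the signaling receptor for IL-1α and IL-1β, went from 418 ± 15.4 in DMSO to 304 ± 27.9 normalized counts (log2 difference -0.46, adjusted p = 0.00399, limma), and IL6R from 100 ± 12.0 to 74.9 ± 6.63 (-0.41, adjusted p = 0.0327). The partner chain IL1RAP was at -0.17 (adjusted p = 0.135, limma). The shared chain IL6ST, which encodes gp130, differed from DMSO by 0.00 at 500 nM (adjusted p = 0.993, limma), LIFR by 0.00 (adjusted p = 0.984) and OSMR by -0.01 (adjusted p = 0.944). IL11RA stood at 20.2 ± 2.55 in DMSO and 17.4 ± 5.02 at 500 nM, and CSF2RA scattered from 13.5 to 102 within DMSO alone.

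Of 30 genes listed for the processing of the IL-1 precursors or their signal, 19 were tested, and 2 of these passed at 500 nM, against 17.8% of all genes. NLRP3, the inflammasome sensor, rose by 0.66 (adjusted p = 0.0301, limma), from 44.8 ± 5.18 to 72.2 ± 15.5 normalized counts, and CAPN1, a calpain, fell by 0.13 (adjusted p = 0.0317). IL1RN, the natural antagonist of the receptor, and IL33 were too low to test. Of 12 tested gp130 ligands and signaling genes, 5 fell and 1 rose at 500 nM. SOCS3, the feedback inhibitor of gp130, fell by 0.70 (adjusted p = 4.53e-09, limma), from 1271 ± 51.3 to 780 ± 28.3 normalized counts, beside the fall of IL6. SOCS1 fell by 1.14 (adjusted p = 0.00161) and the ligand gene CTF1 by 0.52 (adjusted p = 0.0403), while the ligand gene CLCF1 rose by 0.32 (adjusted p = 0.00808, limma).

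Of 21 tested genes for other chemokines and growth cytokines, 9 fell at 500 nM, with a median log2 difference of -0.22 over the list. The 1 called rise was CSF3, which these libraries had chosen for its likeness to IL1B, so it is a description. Of all tested genes 17.8% were called at that dose (10.1% lower and 7.69% higher). CSF1, the macrophage growth factor, fell by 1.44 (adjusted p = 5.59e-12, limma), from 11010 ± 422 to 4055 ± 169 normalized counts. CX3CL1, the membrane-bound chemokine fractalkine, fell by 1.83 (adjusted p = 1.59e-07), from 210 ± 6.64 to 59.4 ± 15.1, and TNFSF15 fell by 0.76 (adjusted p = 0.0128, limma).

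All 20 genes listed for transcription factors that act on cytokine promoters were tested, and 10 fell and 2 rose at 500 nM. The rises were in the AP-1 subunits FOSL1, by 0.42 (adjusted p = 2.86e-06, limma), and JUN, by 0.33 (adjusted p = 2.63e-05), and another subunit, FOS, fell by 1.18 (adjusted p = 0.00416). BCL3, a nuclear partner of NF-κB, fell by 1.19 (adjusted p = 5.99e-09, limma), and CEBPD, a C/EBP factor, by 1.04 (adjusted p = 5.11e-06). Of 20 genes for proteins that bind AU-rich RNA or degrade mRNA, 1 rose and 2 fell at 500 nM. TIAL1 rose by 0.13 (adjusted p = 0.0383, limma), AUH fell by 0.47 (adjusted p = 0.00106), and ZC3H12A, which encodes the endonuclease regnase-1 that cleaves IL6 mRNA, fell by 0.43 (adjusted p = 8.92e-06, limma). At 500 nM 17.8% of all tested genes were called.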

How the data were processed

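The authors selected poly-A RNA, sequenced it as paired reads, aligned them with HISAT2 to hg38 and counted them per gene with HTSeq. The deposited signal values are these counts divided by the DESeq2 size factor of each library. Versions and strand setting are not given in the sources used here. The table's dose line, which names no gene, was dropped, and 100.0% of values came out as whole reads within 0.001. The main test was limma 3.58.1 (R 4.3.3) on log2(normalized count + 1) with a variance trend, for 13561 genes with a mean of at least 10, fitted over all 5 groups at once, with p adjusted over these genes by Benjamini-Hochberg and a threshold of 0.05. Fold changes of low genes are understated on this scale. Alternatives were other pseudocounts and filters, TMM, equal totals, edgeR 4.0.16, DESeq2 1.42.0, a replicate block, the 6 libraries compared alone, each library left out and, added after seeing the data, removal of length and GC trends. The fit was tested on simulated data. Members and gene lists were chosen with earlier results of these data known. Named are the members, their receptors, up to 3 rises and 3 falls per list at 500 nM, the 5 genes most like IL1B, of which 1 is not reported here, and the cell markers.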

Additional observations from a re-analysis of the deposited data

How the results depend on the processing

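No difference that passed the threshold changed its sign under any alternative. Of the alternative values of single genes 1748 were unchanged, 25 passed the threshold newly, 12 changed sign with no call on either side, and 35 lost the call, most of these in the 5 nM falls of CXCL1 and CXCL8 and the steps of IL6 and CSF2 from 5 to 500 nM. Unchanged values kept their sign and their side of the threshold. For IL1B against DMSO, which was not tested, they kept their sign and moved by less than the SD within groups. The changes of sign were in differences near 0 on the log2 scale. With length and GC trends removed CSF2 at 0.5 nM was at -0.0105. The others came from leaving out 1 library, over which CXCL2 ran from -0.123 to 0.0375 at 0.5 nM and -0.158 to 0.0020 at 5 nM (highest without DMSO replicate 2), and CXCL3 at 500 nM from -0.135 to 0.0363 (above 0 without DMSO replicate 2, at 0.0050, or 500 nM replicate 1). At 50 nM CXCL8 ran from -0.0442 to 0.146 and CXCL1 from -0.0398 to 0.0980, and from 50 to 500 nM CSF2 from -0.0949 to 0.050, with the changed sign without 50 nM replicate 2. IL6 from 5 to 50 nM ran from -0.117 to 0.0033 (without 5 nM replicate 1), IL1A from 50 to 500 nM from -0.0050 (without 500 nM replicate 3) to 0.203, and IL1B from 5 to 500 nM from -0.0389 (without 5 nM replicate 1) to 0.0686, with -0.0019 without 500 nM replicate 3. At 0.5 nM the count of called cytokines, 0, became 1 with TMM, 1 with edgeR, 2 with DESeq2 and 1 with length and GC trends removed. At 5 nM the count of 3 became 1 with no filter, where more genes are tested, and 5 with the 6 libraries compared alone, and with those 6 libraries the called genes numbered 21 at 0.5 nM, against 159, and 846 at 5 nM, against 295. Leaving out 1 library at a time, the count of called cytokines ran from 0 to 2 at 0.5 nM (higher without 0.5 nM replicate 2 or 3), 1 to 5 at 5 nM (1 without DMSO replicate 2 or 3 or any 5 nM library, 5 without 0.5 nM replicate 2), 2 to 3 at 50 nM and 5 to 5 at 500 nM. It ran from 3 to 6 between 5 and 50 nM, 2 to 4 between 50 and 500 nM (4 without 50 nM replicate 1) and 1 to 3 between 5 and 500 nM (1 without 5 nM replicate 3 or 500 nM replicate 1 or 2). The counts over all genes ran from 19 (without DMSO replicate 1) to 391 (without 0.5 nM replicate 3) at 0.5 nM, 113 (without DMSO replicate 1) to 623 (without 0.5 nM replicate 2) at 5 nM, 560 to 1276 at 50 nM, 1795 to 3097 at 500 nM, 424 to 1129 from 5 to 50 nM, 139 to 630 from 50 to 500 nM and 1093 to 2148 from 5 to 500 nM. The highest counts at 50 and 500 nM and in the steps from 5 to 50, 50 to 500 and 5 to 500 nM were those without 0.5 nM replicate 2, the library that stood apart from its group. The cause of the other changes was not tested.

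Replicate numbers did not pair the libraries: deviations of same-numbered libraries correlated at -0.09 to 0.10 over 30 pairs, with 0 above 0.1. With the replicate number as a block, 4 cytokines were called at 5 nM, IL1A in addition, 3 at 50 nM and 5 at 500 nM, and 2506 genes were called at 500 nM. With 3 libraries per group and IL1A near 100 normalized counts, differences of its size had an SE of 0.17, against 0.058 for LIF.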
